A study of Mus musculus with 6 samples.

Results

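The 10 genes described here act on triglyceride, the fat that heart muscle cells store in lipid droplets. They are Pnpla2, Lipe, Mgll, Abhd5, Lpl, Plin4, Plin5, Dgat2, Gpam and Lpin1, and they were chosen by name from 46078 counted gene features. To them were added the mm10 features whose exons overlap theirs on the other strand by at least 1 base, of which there were 4. The rule uses no measured value, although earlier results of these data were known when it was made.

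A heart muscle cell takes up fatty acids that lipoprotein lipase releases from circulating lipoproteins, and it can either oxidise them or store them. Storage runs through glycerol-3-phosphate acyltransferase, phosphatidate phosphatase and diacylglycerol acyltransferase, and perilipins coat the droplet that results. Release runs in steps through adipose triglyceride lipase with its activator, hormone-sensitive lipase and monoglyceride lipase. The cytosolic acetyl-CoA made by ATP citrate lyase, the product of Acly, is a building block of newly made fatty acids.

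Cardiomyocytes, the contracting cells of the heart, were isolated by perfusing mouse hearts, and their poly-A RNA was sequenced in 2 groups. The Acly_KD group (n = 3) has the genotype Acly-KD and was made with MyH6-Cas9 mice, in which the promoter of the cardiac alpha myosin gene drives Cas9 in heart muscle cells. The control group (n = 3) has the genotype wildtype. Both groups were perfused, and whether the controls carry Cas9, and the strain, age and sex of the mice, are not given in the sources used here. Nothing in the labels says that the libraries are from different mice. Each p-value sets the difference between the groups against the variation among these libraries, and that variation may be technical. Reads counted in features ranged from 460222 to 799868 in Acly_KD and from 271463 to 814765 in control libraries, which was 2.81% to 3.07% of uniquely aligned reads. At Acly itself the Acly_KD libraries, in the order of their replicate numbers, had 0, 0 and 0 reads, against 1, 5 and 6 in the controls. All values by library below keep that order. With 3 counts as the upper limit over the Acly_KD group, this is at least a 4.10-fold lower level, and an exact permutation test of the 3 against 3 libraries gave p = 0.1, the smallest it can give. Floors and counting limits cover counting error only.

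The counts look swapped between strands, since features with opposite-strand exons held 91.9% of the nuclear reads. The count at a gene's own locus is therefore a count of reads on the wrong strand for its mRNA, and the mRNA itself can be seen only where a feature lies opposite. Of the 10 genes, 6 had no exon opposite to them: Pnpla2, Lpl, Plin5, Dgat2, Gpam and Lpin1. For the other 4 the opposite features were 4732471J01Rik at Lipe with 918 shared exonic bases, A730085K08Rik at Abhd5 with 950, Gm26588 at Mgll with 167 and Hdgfl2 at Plin4 with 17. The first 3 are annotated as antisense RNAs, and Hdgfl2 is a protein-coding gene. Acly has no exon opposite to it either, so its check above rests on wrong-strand reads too.

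**Figure D1:**
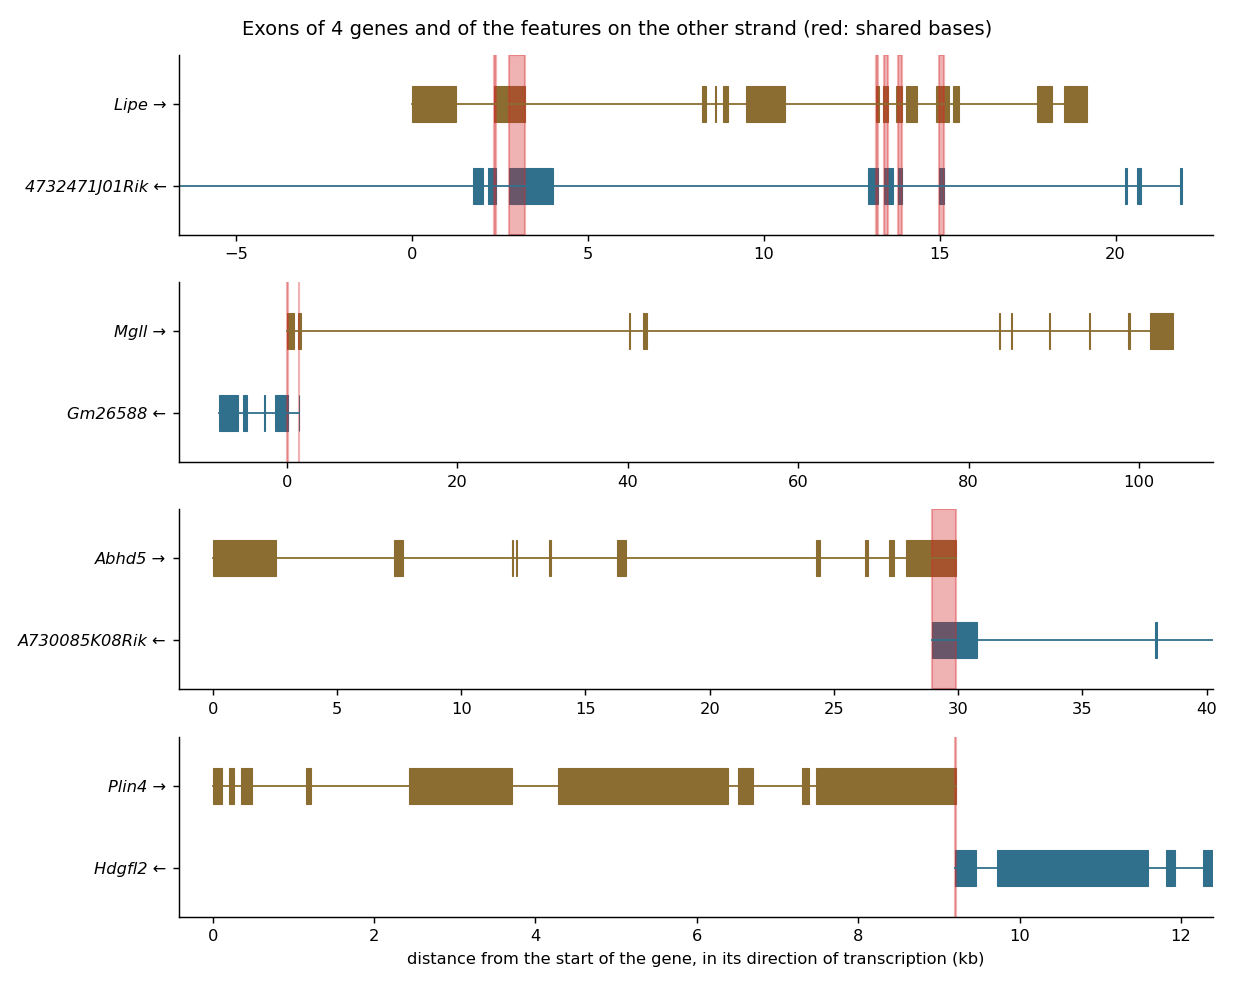
Exon maps of Lipe, Mgll, Abhd5 and Plin4 (upper row of each panel) and of the feature on the other strand (lower row), against distance in kb from the start of the gene in its direction of transcription. Blocks are exons of all annotated transcripts, lines are introns, arrows give the direction of transcription, and features that extend past the window run to its edge. Red marks the shared exonic bases, which are 918 at Lipe, 167 at Mgll, 950 at Abhd5 and 17 at Plin4.

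The shared bases at Lipe and Mgll lie partly in coding sequence, and these stretches are printed because the reading of either mRNA rests on them. In the annotated transcript Lipe-201 the feature 4732471J01Rik covers 465 coding bases, in exons 1, 3, 4, 5 and 7. It covers 356 in Lipe-202, Lipe-204 and Lipe-208, which lack the stretch of exon 1, and 0 in the protein-coding transcripts Lipe-203 and Lipe-205. In every protein-coding transcript of Mgll, Gm26588 covers 62 coding bases. Sequences are given 5′ to 3′ on the strand of the gene, from the GENCODE transcripts of mm10, and capitals mark the bases shared with the opposite feature.
Lipe, coding bases of exon 1 (chr7:25395501-25395609, minus strand): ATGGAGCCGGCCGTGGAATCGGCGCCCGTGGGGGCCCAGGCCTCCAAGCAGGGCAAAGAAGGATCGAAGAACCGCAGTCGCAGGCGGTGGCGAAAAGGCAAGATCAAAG
Lipe, exon 3 (chr7:25385437-25385527, minus strand): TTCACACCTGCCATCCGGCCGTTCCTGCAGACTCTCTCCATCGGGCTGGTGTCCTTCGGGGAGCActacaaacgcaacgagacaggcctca
Lipe, exon 4 (chr7:25385180-25385325, minus strand): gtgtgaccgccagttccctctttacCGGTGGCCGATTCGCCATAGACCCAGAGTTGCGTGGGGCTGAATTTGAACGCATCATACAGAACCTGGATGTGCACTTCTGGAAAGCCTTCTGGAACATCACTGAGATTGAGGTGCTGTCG
Lipe, exon 5 (chr7:25384780-25384965, minus strand): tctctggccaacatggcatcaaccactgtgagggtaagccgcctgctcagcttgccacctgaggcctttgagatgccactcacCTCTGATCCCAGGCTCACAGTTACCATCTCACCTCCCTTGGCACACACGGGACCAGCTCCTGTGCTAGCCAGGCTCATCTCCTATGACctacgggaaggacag
Lipe, exon 7 (chr7:25383453-25383680, minus strand): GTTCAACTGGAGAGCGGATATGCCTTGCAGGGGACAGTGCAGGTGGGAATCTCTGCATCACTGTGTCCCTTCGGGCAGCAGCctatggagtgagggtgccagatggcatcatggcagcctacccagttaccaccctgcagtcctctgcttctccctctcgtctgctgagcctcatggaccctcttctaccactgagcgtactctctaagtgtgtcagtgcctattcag
Mgll, coding bases of exon 2 (chr6:88725721-88725845, plus strand): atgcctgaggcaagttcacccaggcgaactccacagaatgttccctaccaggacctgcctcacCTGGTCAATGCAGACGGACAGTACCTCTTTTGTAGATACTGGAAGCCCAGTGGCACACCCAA
At Abhd5 all 950 shared bases lie in the untranslated 3′ end (chr9:122380575-122381524), and at Plin4 the 17 shared bases are the last of the gene (chr17:56100591-56100607), so neither is printed.

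Among the lipolytic genes, Lipe and Abhd5 held far more reads through the opposite feature than at the own locus (1269 against 21 and 1380 against 7), Mgll held 54 against 43, and Pnpla2 has no opposite feature. Of these readings, only the own locus of Pnpla2 and the features opposite to Lipe and Abhd5 had enough reads for the test. It called 0 of them, and 0 of all 2952 features tested. Lipe encodes hormone-sensitive lipase, which cleaves diacylglycerol (chromosome 7, 25379527 to 25398710, mm10). Its opposite feature 4732471J01Rik held 205, 92 and 282 reads in Acly_KD, against 84, 336 and 270 in control. Scaled to counts per 1000000 reads (CPM), these were 315, 225 and 352 CPM in Acly_KD and 306, 398 and 388 CPM in control. The groups overlapped, with the lowest value in Acly_KD replicate 2 and the next lowest in control replicate 1. The means were 297 ± 65.7 CPM in Acly_KD and 364 ± 50.5 CPM in control (SD, n = 3 each), for which edgeR gave a log2 fold change of -0.29 (95% interval -0.70 to 0.11, adjusted p = 0.906). The own locus of Lipe held 4, 0 and 6 reads in Acly_KD and 2, 5 and 4 reads in control, which is too few for the test. A count of 0 in Acly_KD replicate 2 allows up to 7.33 CPM, above every other value of Lipe at its own locus except that of Acly_KD replicate 3.

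Abhd5 encodes the activator of adipose triglyceride lipase (chromosome 9, 122351608 to 122381524), and its opposite feature was the only one of those tested with a fold change above zero. This feature, A730085K08Rik, held 332, 158 and 280 reads in Acly_KD, against 84, 264 and 262 in control. These came to 510, 386 and 350.0 CPM in Acly_KD and 306, 312 and 377 CPM in control. The value of Acly_KD replicate 1 stood highest, and Acly_KD replicate 3 lay below control replicate 3, so the groups overlapped. The means were 415 ± 83.8 CPM in Acly_KD and 332 ± 39.2 CPM in control (SD, n = 3 each). The log2 fold change was 0.32 (95% interval -0.07 to 0.70, adjusted p = 0.899, edgeR). Without Acly_KD replicate 1 the log2 fold change was 0.14 (adjusted p = 0.996, edgeR). The own locus of Abhd5 held only 3 reads in the 3 Acly_KD libraries together and 4 in the 3 controls.

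Mgll encodes monoglyceride lipase, which releases the last fatty acid of a triglyceride (chromosome 6, 88724412 to 88828360). Its opposite feature Gm26588 shares only 3.77% of its exonic bases with Mgll, and the whole count of that feature is given here. Gm26588 had 0, 5 and 24 reads in Acly_KD and 7, 8 and 10 reads in control. These were 0, 12.2 and 30.0 CPM against 25.5, 9.47 and 14.4 CPM. At its own locus Mgll had 5, 2 and 16 reads in Acly_KD and 3, 8 and 9 reads in control, or 7.68, 4.88 and 19.999 CPM against 10.9, 9.47 and 12.9 CPM. In both readings Acly_KD replicate 3 was the highest library, the controls lay within the range of the Acly_KD libraries, and the counts were under the filter of the test.

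Pnpla2 encodes adipose triglyceride lipase, which starts triglyceride breakdown (chromosome 7, 141455198 to 141460743), and it could be read only at its own locus. It had 2, 2 and 18 reads in Acly_KD and 4, 23 and 7 reads in control, or 3.07, 4.88 and 22.5 CPM against 14.6, 27.2 and 10.1 CPM. Acly_KD replicates 1 and 2 lay under all controls and Acly_KD replicate 3 lay between them. The log2 fold change was -0.69 with a 95% interval from -2.17 to 0.79 (adjusted p = 0.959, edgeR), which includes large changes in either direction.

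**Figure D2:**
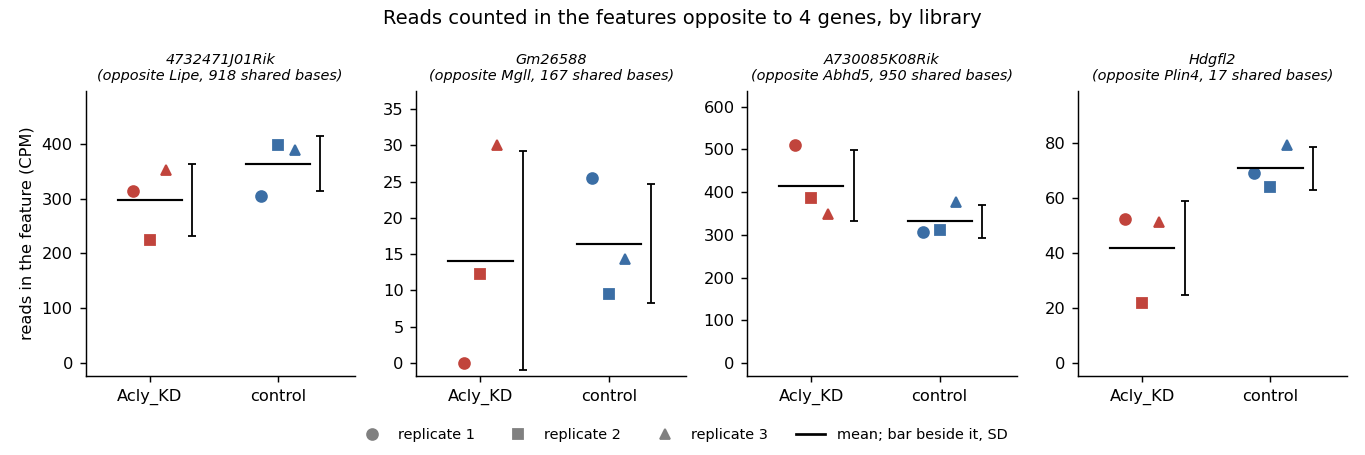
CPM in the 4 features opposite to Lipe, Mgll, Abhd5 and Plin4, by library, with Acly_KD on the left of each panel. Symbols give the replicate, black lines the means and bars the SD (n = 3 each). Only Hdgfl2 had groups that did not overlap, with 21.98 to 52.2 CPM in Acly_KD and 63.9 to 79.1 CPM in control.

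Lpl encodes lipoprotein lipase, the enzyme that frees fatty acids from circulating triglyceride (chromosome 8, 68880491 to 68907448). With 737 own-locus reads over the 6 libraries it had the most of the 10 genes. It had 62, 60 and 235 reads in Acly_KD and 53, 222 and 105 reads in control, or 95.2, 147 and 294 CPM against 193, 263 and 151 CPM. Acly_KD replicate 3 was the highest of all libraries and Acly_KD replicates 1 and 2 were the lowest, so the Acly_KD range enclosed the controls. The means were 178 ± 103 CPM in Acly_KD and 202 ± 56.4 CPM in control (SD, n = 3 each), with a log2 fold change of -0.17 and a 95% interval from -1.15 to 0.81 (adjusted p = 0.965, edgeR). Its sign depended on the libraries: without Acly_KD replicate 1 the log2 fold change was 0.15, without Acly_KD replicate 3 it was -0.73, and without control replicate 2 it was 0.11.

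The droplet coat genes were read at their own loci. Plin5 encodes the perilipin that links droplets to mitochondria in oxidative tissues (chromosome 17, 56111601 to 56117596). It had 5, 3 and 27 reads in Acly_KD and 6, 23 and 25 reads in control, or 7.68, 7.33 and 33.7 CPM against 21.8, 27.2 and 35.9 CPM. Acly_KD replicates 1 and 2 lay under all controls, and Acly_KD replicate 3 lay among the controls. The log2 fold change was -0.73 with a 95% interval from -1.94 to 0.47 (adjusted p = 0.935, edgeR). It was -1.87 without Acly_KD replicate 3 (adjusted p = 0.108, edgeR) and 0.19 with Acly_KD replicates 1 and 2 left out.

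Plin4, a perilipin of muscle and fat cells (chromosome 17, 56100591 to 56109803), is the neighbour of Plin5. As for Plin5, Acly_KD replicates 1 and 2 lay under all controls and Acly_KD replicate 3 lay among them. It had 12, 5 and 77 reads in Acly_KD and 18, 114 and 55 reads in control, or 18.4, 12.2 and 96.2 CPM against 65.5, 135 and 79.1 CPM. The means were 42.3 ± 46.8 CPM in Acly_KD and 93.2 ± 36.8 CPM in control (SD, n = 3 each), with a log2 fold change of -1.08 and a 95% interval from -2.79 to 0.63 (adjusted p = 0.926, edgeR). Plin4 passed the test only in the fit without Acly_KD replicate 3, which called 69 of 2998 features, 46 of them lower. In that fit the log2 fold change of Plin4 was -2.53 (adjusted p = 0.00780, edgeR). In a fit of Acly_KD replicate 3 alone against the 3 controls, where the lone library is assumed to vary like them, the value was -0.02 (adjusted p = 0.999, edgeR).

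Hdgfl2, which encodes a protein that binds histones, lies opposite to the last 17 bases of Plin4. It had 34, 9 and 41 reads in Acly_KD and 19, 54 and 55 reads in control, or 52.2, 21.98 and 51.2 CPM against 69.2, 63.9 and 79.1 CPM. All 3 Acly_KD values lay below all 3 controls, as happened for 5.56% of the 2952 features tested, and for 11.4% in either direction. Of the 14 own-locus and opposite-feature readings, 1 had groups apart in this way. The log2 fold change was -0.71 with a 95% interval from -1.46 to 0.03 (adjusted p = 0.854, edgeR). Reads at the 3′ ends of both mRNAs can reach the shared bases, so part of the Plin4 count can come from Hdgfl2 mRNA and part of the Hdgfl2 count from Plin4 mRNA, and these cannot be told apart here.

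The genes of triglyceride synthesis had no opposite exon. Dgat2 encodes a diacylglycerol acyltransferase, which adds the last fatty acid (chromosome 7, 99153658 to 99182719). It had 0, 4 and 23 reads in Acly_KD and 11, 28 and 16 reads in control, or 0, 9.77 and 28.7 CPM against 40.1, 33.1 and 23.0 CPM. The 0 of Acly_KD replicate 1 allows up to 4.61 CPM, below the lowest control, and Acly_KD replicate 3 lay above control replicate 3. The log2 fold change was -1.19 with a 95% interval from -2.93 to 0.56 (adjusted p = 0.906, edgeR). It was -2.86 without Acly_KD replicate 3 (adjusted p = 0.0552, edgeR), -0.57 without Acly_KD replicate 1 and -0.10 with Acly_KD replicates 1 and 2 left out.

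Gpam encodes mitochondrial glycerol-3-phosphate acyltransferase, which adds the first fatty acid (chromosome 19, 55067268 to 55127238). It had 1, 6 and 9 reads in Acly_KD and 7, 11 and 12 reads in control, or 1.54, 14.7 and 11.2 CPM against 25.5, 13.015 and 17.3 CPM. Acly_KD replicate 2 lay above control replicate 2, and the counts were under the filter. Lpin1 encodes lipin 1, the phosphatidate phosphatase that makes diacylglycerol and also acts as a transcriptional coactivator (chromosome 12, 16535669 to 16610966). It had 0, 3 and 26 reads in Acly_KD and 5, 10 and 4 reads in control, or 0, 7.33 and 32.5 CPM against 18.2, 11.8 and 5.75 CPM. For Lpin1 too the range of the Acly_KD libraries enclosed the controls.

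**Figure D3:**
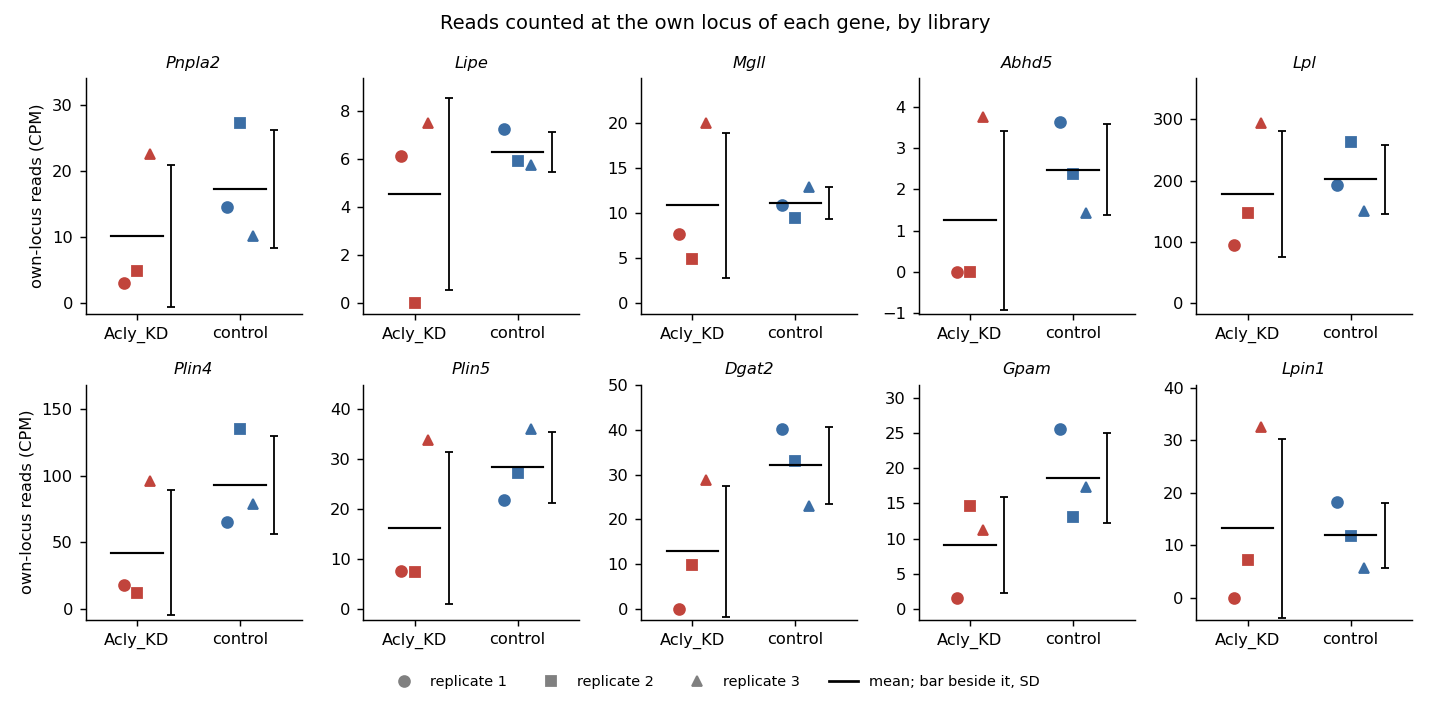
Own-locus CPM of the 10 genes by library, with Acly_KD on the left of each panel. Symbols give the replicate, black lines the means and bars the SD (n = 3 each). Acly_KD replicate 3 stood above Acly_KD replicates 1 and 2 in every panel except Gpam, where Acly_KD replicate 2 was highest of its group at 14.7 CPM.

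At the own loci 5 of the 10 genes passed the filter on low counts, namely Pnpla2, Lpl, Plin4, Plin5 and Dgat2, and 0 of them passed the test, as did 0% of the 2952 features tested (adjusted p under 0.05 in edgeR). At an unadjusted p under 0.05 in edgeR there were 0 of these 5 and 180 (6.1%) of all features. DESeq2's test and limma-voom with quality weights also called 0 of the members at an adjusted p under 0.05. All 5 had log2 fold changes below zero, with a median of -0.73, while over all features the median was -0.04 and 54.4% lay below zero. Own-locus values of lipid droplet genes below zero were among the results known when the genes were chosen, so this direction is no independent evidence. Of the 4 opposite features 3 passed the filter and 0 passed the test, with 0 at an unadjusted p under 0.05 in edgeR. DESeq2's test and limma-voom also called 0 of them, and their log2 fold changes were 1 above and 2 below zero. At an unadjusted p under 0.05 limma-voom had 2 of the 5 members at their own locus and 2 of the 3 opposite features. Over all 2952 features it had 325.

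The own-locus reads of the 10 genes were low in Acly_KD replicates 1 and 2 and not in replicate 3. Acly_KD replicate 1 lay under all 3 controls for 9 of the 10 genes and Acly_KD replicate 2 for 8, while Acly_KD replicate 3 lay under them for 1 gene and over them for 5. Over the 2952 features tested, 36.3%, 30.5% and 23.9% lay under all 3 controls in Acly_KD replicates 1, 2 and 3, and 25.5% lay over them in Acly_KD replicate 3. Of the 5 members that passed the filter, 5, 5 and 0 lay under all controls in those libraries, and 1 lay over them in Acly_KD replicate 3. The median gene stood at -1.90, -1.55 and 0.37 in Acly_KD and at 0.09, 0.04 and -0.27 in control, as log2(CPM + 1) minus the control mean. The 10 markers of heart muscle cells measured in the same way (Myh6, Actc1, Tnnt2, Tnni3, Ryr2, Atp2a2, Myl2, Myl3, Pln and Ckm) had medians of -1.46, -0.58 and 0.26 in Acly_KD and 0.14, 0.10 and -0.22 in control. Over all features tested the medians were -0.04, -0.01 and 0.03 in Acly_KD and 0.00, 0.03 and 0.01 in control. The 6 medians had the same order for the members and for the markers.

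Set against those markers, the values of the groups overlapped. Per 1000 own-locus reads of the markers, the 10 genes together had 28.9, 21.9 and 32.7 reads in Acly_KD and 25.5, 36.4 and 27.0 reads in control. The sum of the members ran from 140 to 550.0 CPM in Acly_KD and from 342 to 528 CPM in control, and that of the markers from 4827 to 16802 CPM in Acly_KD and from 12671 to 15737 CPM in control. For 48 other genes read at least 10 times more often through an opposite feature than at their own locus, own-locus reads per mRNA read, relative to each gene's mean on the log scale over the 6 libraries, had medians of 0.593, 0.880 and 1.38 in Acly_KD and 1.22, 1.245 and 0.955 in control. With this ratio as a term in the fit, the log2 fold change of Lpl was 0.14 and those of Pnpla2, Plin4, Plin5 and Dgat2 were -0.41, -0.83, -0.56 and -1.01, with adjusted p from 0.530 to 0.991 in edgeR. The part of this ratio in the own-locus values of each gene was not tested beyond that fit. At their own loci all 10 markers had log2 fold changes below zero, with a median of -0.43. In the reading of mRNA described below only 3 of the 10 markers could be tested. Of these 2 were above and 1 below zero, with a median of 0.03. An unadjusted p under 0.05 was reached by 1 of the 3, as by 8.6% of all genes tested (lowest adjusted p of the 3 = 0.471, edgeR). Fewer cells of a type and less RNA per cell cannot be told apart in these bulk samples.

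**Figure D4:**
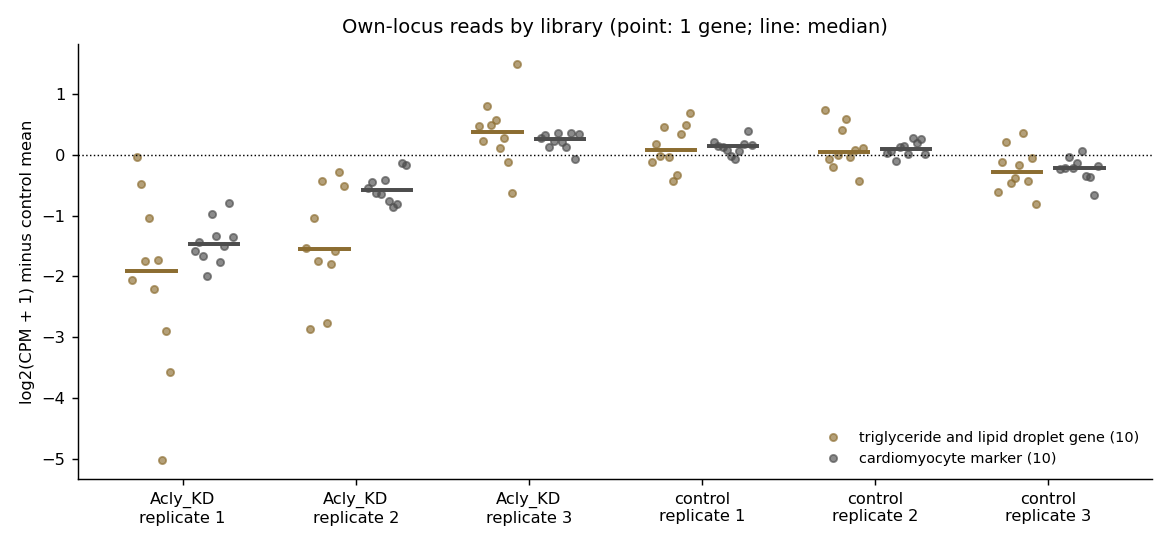
Own-locus reads of the 10 triglyceride and lipid droplet genes (left of each library) and of 10 heart muscle cell markers (right), as log2(CPM + 1) minus the control mean, by library. Points are genes and lines are medians. Acly_KD replicates 1 and 2 stand low for both sets, at medians of -1.90 and -1.55 for the members and -1.46 and -0.58 for the markers, and Acly_KD replicate 3 stands at 0.37 and 0.26.

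Reads at the own locus and in the opposite feature were compared for Lipe, Mgll and Plin4, which had at least 10 reads on each side. The measure was the log2 ratio of opposite to own-locus reads with 0.5 added to each. The feature opposite to Plin4 is the protein-coding gene Hdgfl2 with only 17 shared bases, so the ratio of Plin4 does not compare readings of the same gene. For Lipe the mean log2 ratio was 6.16 in Acly_KD and 5.64 in control, a difference of 0.52 (exact permutation p = 0.8, two-sided). For Mgll it was -0.58 in Acly_KD and 0.41 in control, a difference of -0.9985 (exact permutation p = 0.9), and for Plin4 it was 0.45 in Acly_KD and -0.33 in control, a difference of 0.78 (exact permutation p = 0.4). Adjusted over the 3 genes each p was 0.9, and 3 libraries against 3 cannot give less than 0.1. The differences of Lipe and Mgll rested on 1 library each, with -0.16 for Lipe without Acly_KD replicate 2 and 0.44 for Mgll without Acly_KD replicate 1. That of Plin4 was 1.46 without Acly_KD replicate 3 and 0.28 without Acly_KD replicate 1. The own-locus count of Lipe in Acly_KD replicate 2 and the count of Gm26588 in Acly_KD replicate 1 were 0, so the ratios there depend on the 0.5 added. With 1 added instead, the differences were 0.28 for Lipe, -0.72 for Mgll and 0.75 for Plin4.

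In a reading of mRNA, each gene was given the whole count of the feature that lies opposite to it, where at least 80% of that feature's opposite-strand overlap and at least 50 bases belonged to the gene. Of the 10 members 3 could be read so, Lipe, Abhd5 and Mgll, and the 17 bases at Plin4 were too few. Lipe had 572, 419 and 713 CPM in Acly_KD and 598, 780 and 736 CPM in control, and control replicate 1 was the only control under the highest Acly_KD library. The means were 568 ± 147 CPM in Acly_KD and 705 ± 95.3 CPM in control (SD, n = 3 each), and the log2 fold change of -0.31 had a 95% interval from -0.67 to 0.05 (adjusted p = 0.621, edgeR). Without Acly_KD replicate 3 it was -0.51 (adjusted p = 0.158, edgeR), and with Acly_KD replicates 1 and 2 left out it was -0.03.

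Abhd5 in the same reading had 927, 720 and 708 CPM in Acly_KD and 598, 613 and 714 CPM in control. Of the Acly_KD libraries only replicate 3 lay under the highest control. The means were 785 ± 123 CPM in Acly_KD and 642 ± 63.4 CPM in control (SD, n = 3 each), and the log2 fold change of 0.29 had a 95% interval from -0.03 to 0.60 (adjusted p = 0.585, edgeR). Without Acly_KD replicate 1 it was 0.15 (adjusted p = 0.939, edgeR), and with Acly_KD replicates 1 and 2 left out it was 0.11. Mgll had 0, 22.8 and 60.7 CPM in Acly_KD and 49.8, 18.6 and 27.3 CPM in control and was under the filter.

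Of the 1453 genes tested in this reading 0.413% were called, 0.206% higher and 0.206% lower. Of the 2 members tested 0 were called, with 0 at an unadjusted p under 0.05 in edgeR and 0 called by DESeq2's test or by limma-voom. At an unadjusted p under 0.05 limma-voom had 1 of the 2 members and 179 of the 1453 genes. The intervals leave room for a log2 fold change of Lipe as low as -0.67 and of Abhd5 as high as 0.60. Of the exonic bases of 4732471J01Rik 21.2% are shared with Lipe, and of those of A730085K08Rik 47.2% are shared with Abhd5. Of those of Gm26588 only 3.77% are shared with Mgll. Reads of the gene, reads counted elsewhere in the feature and reads of another transcript on that strand cannot be told apart.

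**Figure D5:**
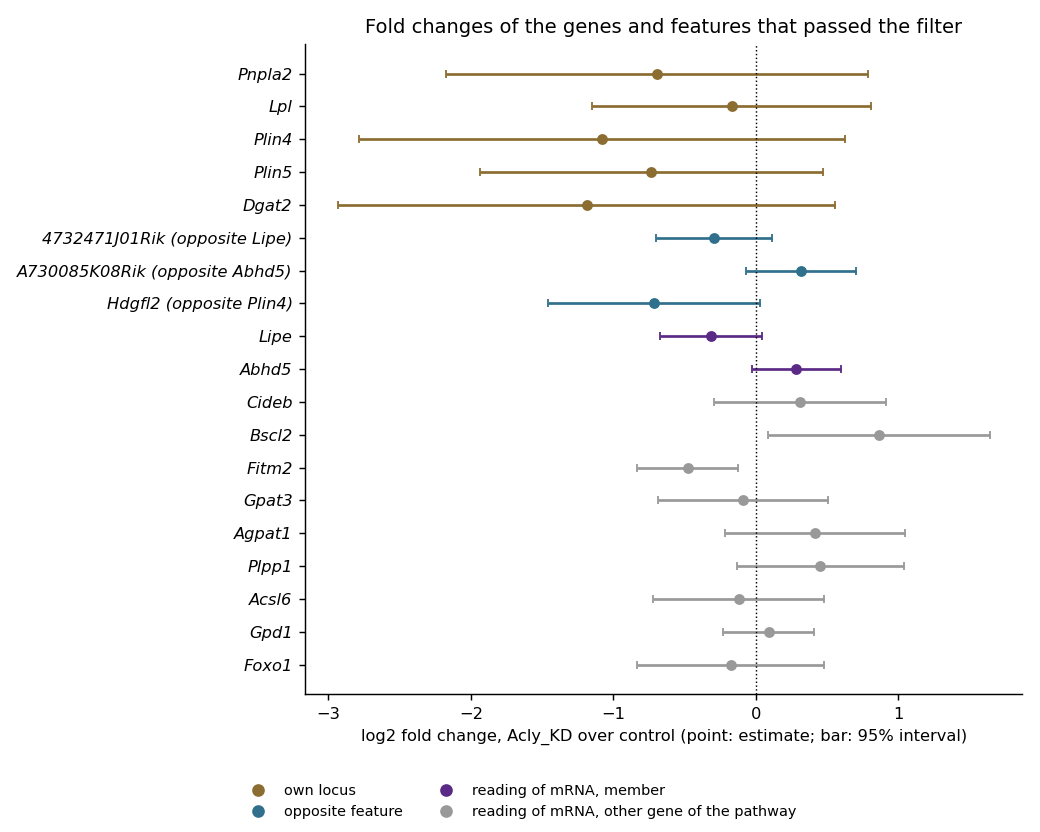
Log2 fold changes of Acly_KD over control with 95% intervals from edgeR, for members at their own locus, for features opposite to members, and for members and other genes of the pathway in the reading of mRNA. Only what passed the filter on low counts is drawn. The intervals of the own-locus values are wide, as for Plin4 from -2.79 to 0.63, against -0.67 to 0.05 for Lipe in the reading of mRNA.

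Other genes of the pathway were taken from lists of 71 genes, of which 70 were found among the features under the listed symbol. At their own loci 11 of the 70 passed the filter and 0 passed the test in either direction, with 1 at an unadjusted p under 0.05 and 0 called by DESeq2's test or by limma-voom with quality weights. Their log2 fold changes were 4 above and 7 below zero, with a median of -0.30. The value at p under 0.05 was that of Ppargc1a, the coactivator of mitochondrial and lipid oxidation genes. It had 16.9, 34.2 and 77.5 CPM in Acly_KD and 51.0, 108 and 128 CPM in control, a log2 fold change of -1.16 with a 95% interval from -2.28 to -0.04 (adjusted p = 0.784, edgeR). Its groups overlapped, and it was low in the same libraries, Acly_KD replicates 1 and 2, as the members.

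Among regulators of lipolysis the most read were Prkar1a and Prkaca, subunits of the protein kinase A that phosphorylates hormone-sensitive lipase. Prkar1a had a log2 fold change of -0.27 (adjusted p = 0.965, edgeR), and Prkaca, with 15 reads in Acly_KD and 20 in control, was under the filter. Around lipoprotein lipase, the lipoprotein receptor gene Vldlr had a log2 fold change of -0.30 and the fatty acid transporter gene Cd36 one of -0.47 (adjusted p = 0.959 for either gene, edgeR). Plin3, a perilipin found in most cell types, had one of -0.74 (adjusted p = 0.959, edgeR). Of the genes of synthesis, Acsl6, a long-chain acyl-CoA synthetase, had 0.45 and Gpd1, which makes glycerol 3-phosphate, had -0.39, with adjusted p of 0.935 and 0.961 in edgeR. Klf15, a transcription factor gene, had only 5 reads in Acly_KD and 11 in control.

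In the reading of mRNA 12 of the 71 genes had values, 9 passed the filter and 0 passed the test in either direction, by edgeR and by DESeq2 and limma-voom alike. Their log2 fold changes were 5 above and 4 below zero, with a median of 0.09 beside 0.01 over all genes. At an unadjusted p under 0.05 there were 2, both of them genes of droplet formation, as there were 8.6% of all genes tested.

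Fitm2 encodes a protein of the endoplasmic reticulum that partitions triglyceride into droplets. Read through 2310001K24Rik, it had 369, 392 and 551 CPM in Acly_KD and 633, 634 and 575 CPM in control. Its log2 fold change was -0.48 with a 95% interval from -0.83 to -0.12 (adjusted p = 0.324, edgeR). Bscl2 encodes seipin, which shapes the budding droplet. Read through Gng3, it had 94.9, 63.8 and 83.4 CPM in Acly_KD and 35.6, 55.7 and 38.2 CPM in control, with a log2 fold change of 0.86 and a 95% interval from 0.08 to 1.64 (adjusted p = 0.471, edgeR). For both genes the groups did not overlap, which held for 14.7% of the genes tested in this reading, and for 6.61% with Acly_KD lower, and their directions were opposite.

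The remaining values lay nearer to zero or were less precise. Gpd1 had 1324, 889 and 1476 CPM in Acly_KD and 1145, 1205 and 1131 CPM in control, a log2 fold change of 0.09 with a 95% interval from -0.23 to 0.41. Cideb, which encodes a droplet protein and was read through Nop9, stood at 0.31, and the interval ran from -0.29 to 0.92. Plpp1, a lipid phosphate phosphatase gene read through Mtrex, stood at 0.45, with an interval from -0.13 to 1.04. Foxo1, a transcription factor gene whose product induces Pnpla2, stood at -0.18, with an interval from -0.83 to 0.48, and Mlxipl, the gene of a glucose-responsive activator of lipogenesis, was under the filter. The adjusted p of these 4 tested genes was from 0.677 to 0.920 in edgeR.

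Markers of other cell types could be read only as wrong-strand counts. Fat cells express several of the members at high levels, and of 7 fat cell markers 5 (Adig, Adipoq, Cfd, Lep and Retn) had 0 reads in every library. The fat cell sum was 3.07, 0 and 11.2 CPM in Acly_KD and 0, 8.28 and 0 CPM in control, from Car3 and Thrsp. Endothelial markers summed to 24.6, 34.2 and 93.7 CPM in Acly_KD and 65.5, 68.6 and 34.5 CPM in control, with reads for 8 of 8 genes. The sums ran from 16.9 to 26.9 CPM in Acly_KD and from 12.9 to 26.0 CPM in control for 7 fibroblast markers, and from 41.5 to 120.0 CPM and from 91.0 to 104 CPM for 6 markers of pericytes and smooth muscle. They ran from 75.7 to 97.5 CPM and from 87.4 to 122 CPM for 7 macrophage markers, of which Ptprc and Adgre1 were at 0. All 10 heart muscle cell markers had reads. The part of other cell types in the values of the members was not tested.

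The features whose profile over the 6 libraries was most like that of Lpl were 3425401B19Rik, 4930474H06Rik and Gm14207, by the root mean square difference of centred log2(CPM + 1) values. The differences were 0.05, 0.14 and 0.14, against a median of 0.65 over the 2951 features compared. 3425401B19Rik had 10.7, 17.1 and 34.998 CPM in Acly_KD and 21.8, 30.8 and 15.8 CPM in control. Like Lpl it was highest in Acly_KD replicate 3 and lowest in Acly_KD replicate 1, which follows from its choice by likeness.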

How the data were processed

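The deposited values are raw counts of reads per gene feature made by the authors, with no normalization. Tools named without versions in the submitters' processing notes are TopHat2, HTSeq, SAMtools, FastQC and DESeq2, and the build is mm10. How HTSeq was set for strand is not stated in these sources. The library kit marks strand, per the labels' protocols. Rows that name no gene (97.4% to 97.7% of a library's entries) stayed out of library sizes and tests.

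Features were matched by identifier to GENCODE M21 (45143 of 46078). The main test was the quasi-likelihood test of edgeR 4.0.16 under R 4.3.3, robust, with TMM scaling, its own filter at 10 reads, and Benjamini-Hochberg adjustment over all features at 0.05. In the reading of mRNA a feature's counts went to the opposite gene where that gene was uncounted or had fewer reads of its own. CPM uses TMM-scaled library sizes, and 1 read was worth 1.18 to 3.64 CPM. Standard errors behind the intervals were derived from the F statistic. The steps were tested on simulated data. Replicates of a group differed by more than sampling noise (chi-square per degree of freedom 3.43 to 10.1). Alternatives were DESeq2 1.42.0, limma 3.58.1, other scalings and filters, a replicate block and left-out libraries.

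The 10 genes, the lists, the rule of the reading of mRNA and the tests were chosen with earlier results of these data known. Named were all members, opposite features with at least 10 reads, Acly, the called or otherwise 2 most read genes of each list in each reading, and the 3 features most like the most read member. Bscl2 was named after its values were seen.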

Additional observations from a re-analysis of the deposited data

How the results depend on the processing

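For the members at their own locus, for the opposite features and for the members in the reading of mRNA, 0 calls were made under every alternative run, except 0 to 1 at the own locus when a library was left out. Calls over all features as deposited were 0, and 0 to 69 with a library left out (69 without Acly_KD replicate 3), 3 with limma-voom, 3 with no filter, 36 with Acly_KD replicates 1 and 2 left out and 3 with a term for own-locus reads per mRNA read; the last 2 settings were added after the data were seen. In the reading of mRNA there were 6 calls (3 higher, 3 lower), and 1 to 20 with a library left out, 2 with libraries scaled to their uniquely aligned reads (0 higher, 2 lower), 14 with limma-voom, 30 with no filter, 0 with at least 10 reads in every library (97 at an unadjusted p under 0.05), 2 with Acly_KD replicates 1 and 2 left out, 1 with the term and 3 when 200 shared bases were asked for. With a replicate block 12 calls were made there. Deviations of same-numbered libraries had correlations of -0.06, -0.02 and -0.18, and those of differently numbered libraries ran from -0.10 to 0.17. These overlap, so they cannot tell whether the numbers pair the samples. Of 176 log2 values under alternatives 8 turned sign: with Acly_KD replicates 1 and 2 left out Pnpla2 (0.31), Lpl (0.52) and Plin5 (0.19), Lpl without Acly_KD replicate 1 (0.15), without control replicate 2 (0.11) and with the term (0.14), and the log2 ratio of opposite to own-locus reads of Mgll without Acly_KD replicate 1 (0.44) and of Lipe without Acly_KD replicate 2 (-0.16). With a library left out Lpl ranged from -0.73 to 0.15, and the ratio from -0.16 to 0.88 for Lipe, from -1.86 to 0.44 for Mgll and from 0.28 to 1.46 for Plin4. With limma-voom Pnpla2 stood at -1.34, Plin4 at -2.06 and Dgat2 at -2.11. Lipe stayed below and Abhd5 above zero in all 17 alternatives of the reading of mRNA, from -0.51 to -0.03 and from 0.11 to 0.38. Leaving out a library could not give a value for Pnpla2 in every case, since it then missed the filter. The cause of these shifts was not tested. Own-locus values of Abhd5 rest on 7 reads and those of Lipe on 21.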
